A study of Homo sapiens with 12 samples.

Results

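Extended-content probe sets are the probe sets of this Affymetrix expression array whose identifying number has 7 digits, where conventional probe sets have fewer. Of the 54675 probe sets on the array, 9921 had such a number, and 6683 of these were paired with exactly 1 gene symbol. A probe set was kept where its log2 value was above 4 on at least 3 of the 12 arrays. This left 1003 extended-content probe sets of 847 genes, whereas 18457 of 34408 conventional probe sets with 1 symbol (53.6%) passed the same filter. The members were chosen by their log2 levels on these arrays, so levels are described here without a test, and tests are given for the response to Ota and for the change over time. Passing the filter was not independent of these changes for every probe set: 22 were above 4 on Ota arrays only, 26 on control arrays only, and 10 in only 1 of the 4 groups. Of the 1003, 760 were above 4 on all 12 arrays.

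The cells were HK-2, a human line immortalised from the proximal tubule epithelium of the kidney, kept in defined medium to which insulin, hydrocortisone and epidermal growth factor had been added. Near confluency, cultures were given Ota at low dose or vehicle alone (control), and RNA was taken at 24 h or 72 h, with 3 arrays in each of the 4 groups: control at 24 h, Ota at 24 h, control at 72 h and Ota at 72 h. The concentration is not stated in the labels, nor is Ota written out, an abbreviation in common use for the kidney toxin ochratoxin A. The 3 arrays of a group are called biological replicates, but nothing says what the cultures shared, so p-values here reflect only the spread among these samples, part of which may be technical. Arrays measure RNA from a whole culture, so fewer expressing cells and less RNA per cell cannot be told apart.

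Within a group, pairs of arrays gave r = 0.982 to 0.993 over the probe sets tested. The log2 difference between 3′ and 5′ actin control probe sets, a sign of RNA quality, was 1.01 ± 0.21 (SD, n = 3) at 24 h and 1.18 ± 0.17 at 72 h on control arrays. On Ota arrays it was 1.17 ± 0.12 and 1.28 ± 0.08. All 9 epithelial markers were above the filter, but of 17 proximal tubule markers only 2 were, and LRP2, CUBN and SLC34A1, which define that segment, were not. None of 5 leukocyte and 6 endothelial markers passed, and 3 of 7 fibroblast markers did. Of the fibroblast markers DCN and LUM rose with Ota at 72 h, by 1.09 ± 0.29 (SE) and 1.68 ± 0.24, and COL1A1 did not pass the test at either time. Of the epithelial markers KRT18 and KRT19 fell at 24 h, by 0.39 (SE 0.11) and 0.41 (SE 0.13), and KRT18, KRT7 and CDH1 fell at 72 h, by 0.87 (SE 0.11), 0.68 (SE 0.15) and 1.11 (SE 0.23). The proximal tubule marker SLC3A1 rose at 72 h by 0.80 ± 0.21. The part of RNA quality and of other cell types in the results was not tested.

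A probe set is a group of short probes that are read together as 1 value. The usual labelling for these arrays starts at the poly(A) tail, so probes are placed near the 3′ end of a transcript, and a gene with several known ends can have several probe sets, each of which may read different transcripts of the gene. The extended content was added to the design after the conventional probe sets, largely from full-length cDNA and transcript records that the earlier design did not cover. The ending of the name tells how specific the probes were judged to be: _at for 1 transcript, _a_at for several transcripts of the same gene, _s_at for transcripts that can come from different genes, and _x_at where some probes can match unrelated sequence. Levels of different probe sets depend on their probes, so a brighter probe set is not a more abundant transcript, and the comparisons are of how each changes.

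Some of the extended-content sets belong to genes of cell division that moved together at 72 h, and the 100 bases before the start of 4 of these genes are shown because they hold letters that E2F proteins and the cell cycle homology region (CHR) are known for. E2F proteins switch on genes at the entry into DNA synthesis, and CHR elements are found in genes of mitosis. Sequences are from RefSeq (GRCh38.p14), 5′ to 3′ on the gene's strand, with the matched letters in capitals. The windows are chr3:48188418-48188517 (minus strand) for CDC25A, the phosphatase that activates cyclin-dependent kinases, chr20:37095998-37096097 (minus strand) for RBL1, a relative of the retinoblastoma protein, chr18:657553-657652 (plus strand) for TYMS, thymidylate synthase, and chr7:36389762-36389861 (plus strand) for ANLN, the cytokinesis scaffold anillin.
CDC25A: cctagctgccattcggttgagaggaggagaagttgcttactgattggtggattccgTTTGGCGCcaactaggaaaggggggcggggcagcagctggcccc
RBL1: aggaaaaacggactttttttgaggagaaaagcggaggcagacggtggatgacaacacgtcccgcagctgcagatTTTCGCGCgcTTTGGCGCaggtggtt
TYMS: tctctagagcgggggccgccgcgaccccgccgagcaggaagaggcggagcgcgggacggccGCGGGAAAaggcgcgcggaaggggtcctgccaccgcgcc
ANLN: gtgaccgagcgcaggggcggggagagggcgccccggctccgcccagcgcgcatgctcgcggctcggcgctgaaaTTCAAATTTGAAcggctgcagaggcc

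The E2F letters searched were TTTGGCGC, TTTCCCGC and TTTCGCGC, and the CHR letters TTTGAA, all on both strands. CDC25A held TTTGGCGC 44 bases before the start. RBL1 held TTTCGCGC 26 and TTTGGCGC 16 bases before it, and TYMS held GCGGGAAA, the reverse complement of TTTCCCGC, 39 bases before it. ANLN held TTCAAA and TTTGAA side by side, 26 and 20 bases before the start. TTTGAA on either strand occurred in 4.61% of 35116 promoter windows of this length, and any of the E2F strings in 0.945%. Neither of the 2 windows listed for TK1, thymidine kinase, held any of these letters, which says only that these letters are not in these windows.

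At 24 h, Ota raised 106 and lowered 189 of the 1003 extended-content probe sets. The difference was tested with limma over the 22477 probe sets above the filter, with Benjamini-Hochberg adjustment, and a probe set counts as changed where the adjusted p is under 0.05. The share changed was 29.4%, against a background of 31.0% of all probe sets tested (12.9% upward and 18.1% downward), so the extended content changed about as often as the array at large. The median log2 change was −0.06, and −0.02 over all probe sets tested. Changes over 2-fold were seen in 56 upward and 90 downward, against backgrounds of 5.22% upward and 5.50% downward. The share of probe sets whose Ota and control arrays did not overlap was 37.8%, against a background of 42.3%.

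The largest rises at 24 h were in probe sets that were low in control cells. IST1 1562848_at, for a protein that works with the ESCRT machinery in membrane scission, read 4.65, 4.05 and 4.50 in control and 8.72, 8.80 and 8.76 in Ota cells at 24 h. All Ota arrays were far above all control arrays, a log2 rise of 4.36 ± 0.16 (SE, adjusted p = 3.9e-08). Both sets of MGC16275, a long non-coding RNA, rose by 4.46 ± 0.38 and 4.48 ± 0.37. In 1558166_at, control arrays read 4.74, 3.48 and 5.48 and Ota arrays 8.86, 8.87 and 9.35, with no overlap, and no conventional probe set of the gene was found to set beside them. RPP30 1556062_at, for a protein subunit of ribonuclease P, which trims transfer RNA precursors, read 2.88, 2.74 and 2.83 in control and 6.22, 6.82 and 5.96 in Ota cells, a rise of 3.52 ± 0.20. TASOR2 1556758_at read 3.30, 2.82 and 3.32 in control and 6.35, 6.70 and 6.20 in Ota cells, a rise of 3.27 ± 0.17. MYLK 1569956_at, for myosin light chain kinase, read 3.09, 2.60 and 2.61 against 6.56, 5.41 and 5.82, a rise of 3.16 ± 0.35. RPP30, TASOR2 and MYLK were above 4 on Ota arrays only. A probe set that entered through the Ota arrays alone, or through the control arrays alone, had to differ between them, so its changes are given as a description here and wherever this is said. GCRMA values near 3 sit close to the floor of the method, so the size of a rise from there depends on that floor.

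Further rises at 24 h were in DCTN5 1556646_at, for a dynactin subunit (3.12 ± 0.41), ARHGAP29 1558280_s_at (3.01 ± 0.49), and ZNF547 1552794_a_at, a zinc finger gene (2.78 ± 0.26), which was above 4 on Ota arrays only. DCTN5 1556646_at read 5.31, 6.02 and 4.33 in control and 8.37, 8.97 and 7.68 in Ota cells, with no overlap. FXYD2 1556294_at, for the gamma subunit that regulates the sodium pump in the kidney, read 3.56, 3.75 and 3.56 in control and 6.27, 6.24 and 6.08 in Ota cells, a rise of 2.57 ± 0.37 (adjusted p = 0.00032). IGF2R 1569052_at, for the receptor that carries mannose 6-phosphate-tagged enzymes to lysosomes, read 3.13, 3.52 and 2.97 against 6.28, 5.99 and 5.00, a rise of 2.55 ± 0.34, and was above 4 on Ota arrays only. Both sets of SEC62, part of the channel that moves proteins into the endoplasmic reticulum, rose: 1552789_at by 1.87 ± 0.13 and 1552790_a_at by 1.93 ± 0.13 (adjusted p = 2.4e-06 and 2e-06). Unlike the probe sets above, the SEC62 sets were well above the floor in every group, for example 8.23, 8.27 and 8.11 in control and 10.14, 10.30 and 9.78 in Ota cells for 1552789_at.

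The largest falls at 24 h were in probe sets at middle levels in control cells. ZMYM3 1554171_at, for a zinc finger protein of histone deacetylase complexes, read 7.81, 7.98 and 8.06 in control and 4.69, 4.55 and 5.12 in Ota cells, and fell by 3.16 on the log2 scale (SE 0.20, adjusted p = 1.3e-06). ENAH 1553672_at, for an actin regulator of the Ena/VASP family, read 6.33, 6.02 and 6.59 against 3.18, 3.18 and 3.29, and fell by 3.10 (SE 0.15, adjusted p = 2.2e-07). CNTLN 1559005_s_at, for a centrosomal linker protein, read 6.37, 5.97 and 6.84 against 3.63, 2.88 and 4.16, and fell by 2.84 (SE 0.31). In all 3 of these the Ota and control arrays lay apart. B3GALT6 1553959_a_at, for an enzyme that builds the linker of proteoglycan chains, fell by 2.71 (SE 0.19), from 9.36, 9.45 and 9.76 to 6.63, 6.57 and 7.27. SMIM7 1559382_at, for a small membrane protein, fell by 2.71 (SE 0.24), and ALG10 1552306_at, for an enzyme that completes the sugar donor of N-glycosylation, by 2.71 (SE 0.46). RBM33 1554095_at, for an RNA-binding protein, fell by 2.66 (SE 0.30), from 5.69, 5.78 and 6.50 to 3.48, 3.00 and 3.52. SMIM7 and RBM33 were above 4 on control arrays only.

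Each extended-content probe set was then set beside a partner, the brightest conventional probe set of the same gene. A partner was found for 855 of the 1003, and 785 of these partners were themselves above the filter. The test asked whether the within-array log2 difference between a probe set and its partner changed between groups, in 1 limma fit that also held 7941 conventional pairs (the brightest conventional probe set of a gene and each other one above the filter). At 24 h, 251 of 855 extended-content pairs (29.4%) responded unequally to Ota, against a background of 29.6% of conventional pairs. In 108 the extended-content set changed upward relative to its partner and in 143 downward. An unequal response beyond 2-fold was seen in 17.3% of extended-content pairs, against 16.2% of conventional pairs. These shares were close to each other.

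Across the 785 pairs with both probe sets above the filter, the correlation of the 2 responses was low at 24 h (Pearson r = 0.12, Spearman rank correlation 0.22), higher at 72 h (0.40 and 0.49) and highest for control cells over time (0.80 and 0.74). Conventional pairs gave r = 0.15, 0.49 and 0.77. These correlations are a description across pairs, which share the same 12 arrays and are not independent. When each array was left out in turn, the extended-content r ranged from 0.10 to 0.14 at 24 h, from 0.37 to 0.44 at 72 h and from 0.77 to 0.80 for control cells over time. At 24 h both probe sets changed in the same direction in 78 pairs (9.94%, against a background of 10.9% of conventional pairs), 18 upward and 60 downward. They changed in opposite directions in 39 pairs (4.97%, against a background of 5.92% of conventional pairs). Only the extended-content set changed in 119 pairs and only the partner in 137. Of 7937 conventional pairs, only the brightest set changed in 1230 and only the other in 1281.

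In the largest rises named here, no partner passed the test for a rise at 24 h. This was in part fixed by the choice of genes. ARHGAP29 and DCTN5 were named for their pair difference at 24 h, and FXYD2 and IGF2R in part for theirs at 72 h. The partners of these genes are therefore given as a description. The IST1 partner read 10.95, 11.08 and 11.06 in control and 10.76, 10.89 and 10.80 in Ota cells at 24 h, a log2 difference of −0.21 ± 0.09 (adjusted p = 0.0999), and the 2 IST1 responses differed by 4.57 ± 0.17 (adjusted p = 1.5e-08). The RPP30 partner fell by 0.80 (SE 0.10), from 10.07, 9.94 and 9.96 to 9.19, 9.03 and 9.38, so the responses differed by 4.31 ± 0.26. The TASOR2 partner differed by 0.06 ± 0.12 and the MYLK partner by −0.18 ± 0.12, and the DCTN5 partner fell by 0.49 (SE 0.13). The pair differences were 3.21 ± 0.19, 3.34 ± 0.28 and 3.61 ± 0.45. ARHGAP29 and its partner differed by 3.27 ± 0.50, IGF2R and its partner by 2.75 ± 0.28, and FXYD2 and its partner by 2.77 ± 0.41.

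The partners of the largest falls were mixed. The ZMYM3 partner read 9.61, 9.81 and 9.31 in control and 9.44, 9.57 and 9.38 in Ota cells, a difference of −0.11 ± 0.15 within the spread, and the responses differed by −3.05 ± 0.23 (adjusted p = 1.9e-06). The CNTLN partner differed by −0.04 ± 0.14. By contrast the ENAH partner fell by 0.83 (SE 0.09), the B3GALT6 partner by 1.07 (SE 0.12), the SMIM7 partner by 1.26 (SE 0.12) and the RBM33 partner by 1.22 (SE 0.14). In these 4 genes both probe sets fell, the extended-content set by more, with pair differences of −2.26 ± 0.16, −1.64 ± 0.18, −1.45 ± 0.23 and −1.44 ± 0.24.

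In several genes it was the partner that rose while the extended-content set fell. TMEM237, for a protein of the ciliary transition zone, fell by 0.76 (SE 0.14) in 1553956_at, from 8.49, 8.55 and 8.77 to 7.91, 7.57 and 8.07, and its partner rose by 2.47 ± 0.18, from 7.06, 6.40 and 7.19 to 9.27, 9.40 and 9.41. Neither probe set's groups overlapped, and the pair difference was −3.23 ± 0.20 (adjusted p = 4.7e-07). LINC01128, a long non-coding RNA, fell by 0.56 (SE 0.13) in 1557055_s_at and rose by 2.94 ± 0.22 in its partner, which read 3.57, 3.98 and 3.25 in control and 6.47, 6.85 and 6.31 in Ota cells. BICD1, for an adaptor of the dynein motor, fell by 2.30 (SE 0.32) in 1554020_at and rose by 1.40 ± 0.22 in its partner. DNAI4, for an intermediate chain of ciliary dynein, fell by 1.39 (SE 0.35) in 1554140_at, which was above 4 on control arrays only, and rose by 2.10 ± 0.26 in its partner.

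The opposite arrangement, with the extended-content set up and the partner down, was seen in 19 of 785 pairs at 24 h. Of 7937 conventional pairs, 266 had the brightest set down and the other up. HOMER2, for a scaffold protein of calcium signalling, read 5.54, 5.08 and 5.20 in control and 6.47, 6.24 and 5.92 in Ota cells in 1556097_at, and 7.32, 6.91 and 6.85 against 5.19, 4.93 and 4.90 in its partner. The extended-content set rose by 0.93 ± 0.15, the partner fell by 2.02 (SE 0.18), and the responses differed by 2.96 ± 0.14 (adjusted p = 8.5e-08). TRIM37, for a ubiquitin ligase that limits centriole number, rose by 1.55 ± 0.19 in 1554001_at, from 7.70, 7.90 and 8.20 to 9.29, 9.69 and 9.48, and fell by 1.08 (SE 0.15) in its partner. FBXO22, for the substrate-binding part of another ubiquitin ligase, rose by 1.79 ± 0.28 in 1559214_at, from 4.08, 4.03 and 3.75 to 5.66, 6.24 and 5.33, and fell by 1.15 (SE 0.27) in its partner. ZNF33B, a zinc finger gene, rose by 0.89 ± 0.19 in 1558586_at, which was above 4 on Ota arrays only, and fell by 1.18 (SE 0.17) in its partner.

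At 72 h, Ota raised 149 and lowered 116 extended-content probe sets (26.4%, against a background of 28.2%, which was 16.4% upward and 11.8% downward). After repeated quantile normalization the split turned, with 132 higher and 144 lower, so 47.8% of the calls were upward against 56.2% as deposited. The median log2 change was −0.01, and 0.02 over all probe sets tested. Changes over 2-fold were seen in 61 upward and 39 downward, against backgrounds of 4.90% and 2.48%. Groups did not overlap in 46.3% of extended-content probe sets, against a background of 49.2%. The rises and falls at both times overlapped in part: 60 probe sets were higher at both, 56.6% of those higher at 24 h and 40.3% of those higher at 72 h, and 56 were lower at both, 29.6% and 48.3% of the respective lists. Over all probe sets tested, 6.13% were higher at both times, which was 47.5% and 37.3% of the respective lists, and 5.92% were lower at both, which was 32.7% and 50.2%.

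Of the probe sets that rose most at 24 h, IST1, TASOR2 and both MGC16275 sets were among the largest rises at 72 h. The rise was smaller at 72 h in RPP30 (1.50 ± 0.20) and MYLK (1.23 ± 0.35). ARHGAP29 rose by 1.67 ± 0.49, and its 2 responses did not pass the test of a difference (−1.34 ± 0.69, adjusted p = 0.215). The 72 h call was lost without 1 array in 5 cases for MYLK and 4 for ARHGAP29 (adjusted p up to 0.0928 and 0.0915). DCTN5 did not pass the test at 72 h (0.94 ± 0.41, adjusted p = 0.115). MGC16275 1558167_a_at read 6.39, 6.65 and 6.32 in control and 10.64, 10.51 and 10.54 in Ota cells at 72 h, a rise of 4.11 ± 0.37, and 1558166_at rose by 3.71 ± 0.38. TASOR2 1556758_at rose by 3.08 ± 0.17, from 3.43, 3.04 and 3.26 to 6.22, 6.37 and 6.39, and IST1 1562848_at by 2.99 ± 0.16, from 5.24, 5.59 and 5.43 to 8.65, 8.37 and 8.22. All of these had Ota and control arrays apart at both times, which for TASOR2, above 4 on Ota arrays only, is no more than a description. Their partners moved little or the other way: the TASOR2 partner fell by 0.40 (SE 0.12), and the IST1 partner differed by −0.17 ± 0.09 (adjusted p = 0.195). RPS15 1563014_at and BTG1 1559975_at joined the largest rises at 72 h, and both were above 4 on Ota arrays only. RPS15 encodes a protein of the small ribosomal subunit. Its extended-content set read 2.40, 2.55 and 2.42 in control and 5.27, 5.41 and 4.84 in Ota cells at 72 h, a rise of 2.72 ± 0.31, while its partner stayed between 14.98 and 15.02 on those 6 arrays. BTG1, which restrains proliferation, rose by 2.70 ± 0.32 in 1559975_at, from 2.96, 2.62 and 2.63 to 5.23, 5.89 and 5.19, and fell by 0.41 (SE 0.11) in its partner. IGF2R 1569052_at rose by 2.40 ± 0.34 and FXYD2 1556294_at by 2.34 ± 0.37 at 72 h, and the FXYD2 partner fell by 0.58 (SE 0.14).

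The largest falls at 72 h included probe sets that rose over time in control cells. DNAI4 1554140_at read 5.66, 6.60 and 5.51 in control and 3.30, 3.25 and 2.96 in Ota cells at 72 h, and fell by 2.75 (SE 0.35). LINC00960 1559826_a_at, a long non-coding RNA, read 5.44, 4.28 and 5.83 against 2.63, 2.94 and 2.70, and fell by 2.42 (SE 0.33). DNAI4 was above 4 on control arrays only, and LINC00960 only on the 3 control arrays at 72 h. NBR2 1553992_s_at, a non-coding RNA that lies beside BRCA1, read 6.55, 6.26 and 6.28 against 4.17, 4.25 and 4.25, and fell by 2.14 (SE 0.24). DNAI4, LINC00960 and NBR2 rose by 1.69 ± 0.35, 2.49 ± 0.33 and 1.98 ± 0.24 from 24 h to 72 h in control cells. Their Ota arrays lay below all control arrays at 72 h, and at 24 h LINC00960 and NBR2 did not pass the test (−0.45 ± 0.33 and −0.43 ± 0.24). BTBD19 1557049_at, above 4 on control arrays only, fell by 2.34 (SE 0.29), SMIM7 1559382_at by 2.07 (SE 0.24), ENAH 1553672_at by 2.00 (SE 0.15) and ZMYM3 1554171_at by 1.96 (SE 0.20), all of which had also fallen at 24 h. ARHGEF28 1554003_at fell by 2.13 (SE 0.15) at 24 h, from 8.17, 8.03 and 8.32 to 6.20, 5.85 and 6.09, and by 1.64 (SE 0.15) at 72 h. Its partner differed by 0.20 ± 0.11 at 24 h and rose by 0.47 ± 0.11 at 72 h.

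Unequal responses were fewer at 72 h: 115 of 855 extended-content pairs (13.5%), against a background of 14.8% of conventional pairs. Beyond 2-fold the share was 8.07%, against a background of 7.03%. Both probe sets changed in the same direction in 97 of the 785 pairs above the filter (12.4%, against a background of 14.1%). They changed in opposite directions in 20 (2.55%, against a background of 1.79%). TASOR2 gave a pair difference of 3.48 ± 0.19, IST1 of 3.16 ± 0.17, BTG1 of 3.12 ± 0.31 and FXYD2 of 2.92 ± 0.41 at 72 h. DNAI4 gave −3.16 ± 0.39, BICD1 −2.92 ± 0.45 and CNTLN −2.63 ± 0.29. BICD1 fell by 1.80 (SE 0.32) in 1554020_at, from 6.57, 6.48 and 7.17 to 5.28, 4.77 and 4.77, and rose by 1.12 ± 0.22 in its partner, from 8.86, 8.94 and 8.20 to 9.97, 9.57 and 9.80. CNTLN 1559005_s_at fell by 1.45 (SE 0.31) and its partner rose by 1.19 ± 0.14. HOMER2 kept opposite directions at 72 h, with a rise of 0.96 ± 0.15 in 1556097_at and a fall by 0.62 (SE 0.18) in its partner. TRIM37 1554001_at rose by 1.61 ± 0.19 at 72 h, and its partner differed by −0.17 ± 0.15.

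Genes of DNA synthesis and division included pairs in which both probe sets rose at 72 h. The lists used here select genes by symbol and were chosen with earlier results of these data known. Each count is to be read against the shares over all probe sets tested, 12.9% higher and 18.1% lower at 24 h, and 16.4% higher and 11.8% lower at 72 h, and against the conventional sets of the same list. Of the 6 extended-content sets of the replication list, 0 rose and 2 fell at 24 h (POLE4 and TYMS), and 2 rose and 0 fell at 72 h (RBL1 and TYMS), and the median log2 change went from −0.43 to 0.31. The conventional sets of the list had 9 rises and 36 falls at 24 h, and 78 rises and 7 falls at 72 h, with medians of −0.14 and 0.54. Of the 15 sets of the mitosis list, 1 rose and 5 fell at 24 h, and 3 rose (CDC25A, ANLN and CENPL) and 0 fell at 72 h, with medians of −0.37 and −0.01. Of 227 conventional sets of that list, 15 rose and 44 fell at 24 h, and 94 rose and 12 fell at 72 h, with medians of −0.09 and 0.32. The falls at 24 h were in the centrosomal genes CEP43, CEP89 (2 sets) and CEP164 and in CENPBD1P, a transcribed pseudogene caught by its symbol. CEP43 1568678_s_at fell by 1.28 (SE 0.11), while its partner differed by 0.30 ± 0.14.

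At 24 h TYMS 1554696_s_at read 10.86, 10.89 and 10.81 in control and 10.41, 10.42 and 10.46 in Ota cells. The values were 8.62, 8.83 and 8.65 against 10.09, 10.00 and 9.98 at 72 h. Ota arrays were below control arrays at 24 h and above them at 72 h, with no overlap at either time. The fall was by 0.42 (SE 0.08) at 24 h, and the rise 1.32 ± 0.08 at 72 h (adjusted p = 3.2e-06), against 1.00 ± 0.12 in the partner. TK1 1554408_a_at, which is on neither list and makes thymidine monophosphate, read 11.13, 11.18 and 11.04 against 10.01, 10.00 and 10.23 at 24 h, and 8.55, 8.70 and 8.44 against 9.85, 9.55 and 9.95 at 72 h. It fell by 1.04 (SE 0.12) and then rose by 1.22 ± 0.12 relative to control, and its partner fell by 0.91 (SE 0.14) and rose by 1.08 ± 0.14. For TK1 the 2 responses differed by −0.12 ± 0.13 and 0.14 ± 0.13, within the error.

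CDC25A 1555772_a_at read 4.08, 4.68 and 4.11 in control and 6.14, 6.54 and 6.11 in Ota cells at 72 h, a rise of 1.97 ± 0.20 (adjusted p = 5.6e-05), and its partner rose by 1.16 ± 0.23. The CDC25A responses differed by 0.81 ± 0.18 (adjusted p = 0.00996) at 72 h and by 0.74 ± 0.18 at 24 h, so the pair was unequal at both times. ANLN 1552619_a_at read 7.87, 8.06 and 7.86 against 9.62, 8.94 and 9.44, a rise of 1.41 ± 0.15, with 1.29 ± 0.17 in its partner. RBL1 1555004_a_at rose by 0.83 ± 0.20, with 0.61 ± 0.12 in its partner. At 24 h CDC25A, ANLN and RBL1 did not pass the test (0.26 ± 0.20, 0.00 ± 0.15 and −0.52 ± 0.20). These are the genes whose promoter letters are printed above, together with TYMS. The rises are relative to control at the same time. From 24 h to 72 h ANLN fell by 1.35 (SE 0.15) in Ota cells and by 2.75 (SE 0.15) in control cells. CDC25A fell by 0.64 (SE 0.20) and 2.35 (SE 0.20). The CDC25A call in Ota cells was lost in 5 settings (adjusted p in limma up to 0.103). The change of RBL1 over time is not given here.

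Of 19 extended-content sets of the endoplasmic reticulum and Golgi list, 4 rose and 0 fell at 24 h (both SEC62 sets, SEC23IP and MIA3 1560148_at), and 3 rose and 5 fell at 72 h, with medians of 0.03 and −0.10. Of 262 conventional sets of the list, 40 rose and 30 fell at 24 h, and 14 rose and 113 fell at 72 h, with medians of 0.02 and −0.38. The symbols caught 1 antisense RNA, GOLGA4-AS1, among the falls at 72 h, and it was above 4 only on the control arrays at 72 h. DNAJB9 and DNAJC3, co-chaperones of the folding machinery in the endoplasmic reticulum, rose strongly over time in control cells. DNAJB9 1554462_a_at read 7.71, 7.30 and 7.90 in control at 24 h, 11.16, 10.86 and 11.28 in control at 72 h, and 9.61, 10.59 and 10.26 in Ota cells at 72 h. It fell by 0.95 (SE 0.23, adjusted p = 0.0112) with Ota at 72 h, and its partner fell by 0.88 (SE 0.22). DNAJC3 1558080_s_at read 11.24, 11.24 and 11.68 in control and 9.79, 10.80 and 10.28 in Ota cells at 72 h, and fell by 1.10 (SE 0.24), with a fall by 1.18 (SE 0.23) in its partner. In both genes the Ota arrays lay below the control arrays.

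MIA3, which helps load large cargo such as collagen for export from the endoplasmic reticulum, had 2 extended-content sets that did not follow each other. MIA3 1569057_s_at read 7.94, 8.09 and 8.15 in control and 7.37, 7.43 and 7.10 in Ota cells at 72 h, and fell by 0.76 (SE 0.11), as did the shared partner by 0.77 (SE 0.10). MIA3 1560148_at stayed between 2.79 and 3.11 on the 6 arrays at 72 h. At 24 h the same 1560148_at rose by 2.22 ± 0.38, from 2.46, 2.74 and 2.81 to 4.17, 6.07 and 4.44, and it passed the filter through those 3 Ota arrays alone, while the partner fell by 0.61 (SE 0.10). TRIB3, a pseudokinase induced in the integrated stress response, fell in 1555788_a_at by 1.13 (SE 0.19) at 24 h, from 8.53, 8.44 and 8.28 to 7.26, 7.38 and 7.23, and by 0.86 (SE 0.19) at 72 h. Its partner fell by 0.77 (SE 0.17) and 0.65 (SE 0.17). TRIB3 and ATF3 gave the only 2 extended-content sets of the list of integrated stress response and amino acid genes. ATF3 1554980_a_at, for a stress-induced transcription factor, did not pass the test for Ota (−0.41 ± 0.37 and −0.25 ± 0.37). Of 218 conventional sets of that list, 30 rose and 40 fell at 24 h, and 21 rose and 59 fell at 72 h.

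The larger lists held changes in both directions. Of 65 zinc finger sets, 5 rose and 11 fell at 24 h, and 6 rose and 10 fell at 72 h. Of 588 conventional zinc finger sets, 58 rose and 99 fell at 24 h, and 44 rose and 54 fell at 72 h. Of 77 sets picked by symbol as long non-coding RNAs, 10 rose and 8 fell at 24 h, and 9 rose and 8 fell at 72 h. The conventional sets of this list, 279 in number, had 40 rises and 61 falls at 24 h, and 26 and 67 at 72 h. MGC16275 had the largest rise on this list at both times. LINC00960, above 4 only on the control arrays at 72 h, had the largest fall at 72 h. By gene annotation, 84 extended-content sets were long non-coding RNAs. Of these 14 rose and 9 fell at 24 h, and 11 rose and 10 fell at 72 h. Of 38 sets of membrane transport genes, 3 rose and 10 fell at 24 h, and 2 rose and 8 fell at 72 h. Among 521 conventional transport sets there were 76 rises and 113 falls at 24 h, and 88 and 50 at 72 h. KCNG3 1552897_a_at, for a potassium channel subunit, fell by 1.84 (SE 0.27) at 24 h, and ATP11B 1564064_a_at, for a phospholipid flippase, by 1.43 (SE 0.20) while its partner rose by 0.82 ± 0.18. Of 25 sets of splicing and RNA-binding proteins, 3 rose and 4 fell at 24 h, and 4 rose and 2 fell at 72 h, and the 427 conventional sets gave 67 rises and 68 falls, then 80 and 27. RSRC1 1555501_s_at, for a splicing factor rich in arginine and serine, rose by 0.84 ± 0.13 at 72 h, with 0.79 ± 0.14 in its partner. Of 21 sets of ubiquitin ligases and proteases, 5 rose and 4 fell at 24 h, and 3 rose and 2 fell at 72 h, and the 617 conventional sets gave 100 rises and 103 falls, then 98 and 84. USP25 1555559_s_at, for a deubiquitinating enzyme, fell by 1.08 (SE 0.17) and 0.89 (SE 0.17), and its partner by 0.83 (SE 0.10) and 0.75 (SE 0.10).

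Smaller lists, of 12 sets or fewer, are given with the rises and falls of their conventional sets. Of 12 chromatin sets, 1 fell at each time, SETD6 1554555_a_at, for a lysine methyltransferase, and of 304 conventional ones 46 rose and 38 fell at 24 h and 51 and 23 at 72 h. SETD6 fell by 1.98 (SE 0.17) at 24 h, from 7.51, 7.66 and 7.97 to 5.68, 5.47 and 6.06, and its partner by 0.63 (SE 0.21). Its fall at 72 h, by 0.62 (SE 0.17), did not pass the test without Ota replicate 3 or control replicate 3 at 72 h, with an adjusted p of up to 0.0691. Of 9 sets of the matrix and adhesion list, 1 rose and 1 fell at 72 h, and 1 fell at 24 h, CD44 1557905_s_at, for the hyaluronan receptor, by 1.13 (SE 0.24), while its partner differed by 0.53 ± 0.20 (adjusted p = 0.0653). The 280 conventional sets of that list had 21 rises and 36 falls at 24 h, and 52 and 25 at 72 h. Of 7 sets of the growth factor and MAPK list, IGF2R rose, and FGFR1OP2 and MAP3K20 fell at 24 h. The IGF2R set was above 4 on Ota arrays only, and FGFR1OP2 was caught by its symbol. Of 298 conventional sets of that list 36 rose and 49 fell at 24 h, and 56 and 11 at 72 h. Of 3 inflammation sets, IRAK1 1555784_s_at, for a kinase of interleukin-1 signalling, fell at 24 h by 0.71 (SE 0.15), and CGAS 1559051_s_at, for the cytosolic DNA sensor, rose at 72 h by 1.39 ± 0.25. CGAS read 3.38, 3.32 and 3.71 in control and 4.43, 5.28 and 4.89 in Ota cells at 72 h. Conventional inflammation sets, 203 in number, had 18 rises and 28 falls at 24 h, and 26 and 15 at 72 h. Of 8 sets of p53, apoptosis and repair genes only BTG1 changed, upward at both times. It was above 4 on Ota arrays only, so this is a description. The BTG1 partner differed by 0.03 ± 0.11 at 24 h and fell by 0.41 (SE 0.11) at 72 h. Of 182 conventional sets 13 rose and 45 fell at 24 h, and 47 and 19 at 72 h. Of 8 sets of the mitochondrial list, 0 changed at 24 h, and at 72 h IDH1 1555037_a_at, for the cytosolic isocitrate dehydrogenase, fell by 0.63 (SE 0.11) and PDHA1 1555864_s_at, for a pyruvate dehydrogenase subunit, rose by 0.31 ± 0.08. Of 414 conventional sets of that list, 40 rose and 113 fell at 24 h, and 76 and 48 at 72 h. The PDHA1 call was lost without Ota replicate 1, control replicate 1 or control replicate 3 at 72 h, with adjusted p up to 0.0633.

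The response to Ota differed between the times in 153 extended-content probe sets, 110 higher and 43 lower at 72 h than at 24 h (15.3%, against a background of 17.0%, which was 11.2% upward and 5.77% downward). By over 2-fold, 70 were higher and 29 lower, against backgrounds of 5.06% and 2.43%. The direction of these depended in part on scaling: 71.9% of the calls were upward as deposited and 60.3% after repeated quantile normalization. Opposite changes at the 2 times, lower then higher, were seen in 12 probe sets, among them TK1, TYMS and SSH2, and the reverse in 1, ATP6V1E2 1552286_at, for a subunit of the vacuolar proton pump (0.72 and −0.80), a probe set singled out after its values were seen. Over all probe sets tested these shares were 1.15% and 0.245%. SSH2 1554114_s_at, for a phosphatase that activates cofilin, read 5.95, 5.80 and 6.53 against 4.19, 4.68 and 4.13 at 24 h and 4.16, 4.17 and 4.38 against 4.99, 5.86 and 5.11 at 72 h. It fell by 1.76 (SE 0.25), then rose by 1.08 ± 0.25, a difference of 2.84 ± 0.35 (adjusted p = 0.0008). Its partner differed by 0.09 ± 0.10 and rose by 0.69 ± 0.10. STRIP2 1555292_at differed by 2.82 ± 0.46, FAM111B 1557128_at by 2.68 ± 0.49 and ARHGAP27 1554594_at by 2.37 ± 0.44. FAM111B, for a serine protease, read 2.67, 2.72 and 2.64 in control and 4.73, 4.55 and 4.40 in Ota cells at 72 h, a rise of 1.88 ± 0.35, and had differed by −0.80 ± 0.35 at 24 h. RPP30 1556062_at went the other way: after the rise of 3.52 at 24 h, it read 2.75, 2.74 and 2.89 in control and 4.19, 4.61 and 4.09 in Ota cells at 72 h, a difference between the responses of −2.01 ± 0.28.

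In control cells, 198 extended-content probe sets rose and 146 fell from 24 h to 72 h (34.3%, against a background of 39.9%, which was 20.2% upward and 19.7% downward). Over 2-fold, 83 rose and 48 fell, against backgrounds of 5.55% and 5.36%. The arrays of the 2 times did not overlap in 46.1%, against a background of 50.9%. ANLN 1552619_a_at fell by 2.75 (SE 0.15, adjusted p = 8.4e-07), from 10.72, 10.64 and 10.69 to 7.87, 8.06 and 7.86, LRRN4 1553171_x_at by 2.57 (SE 0.34) and TK1 1554408_a_at by 2.55 (SE 0.12). HMGA2 1567224_at, for a chromatin protein of growing cells, fell by 2.48 (SE 0.33), from 6.65, 7.10 and 5.68 to 4.15, 4.27 and 3.58. CDC25A fell by 2.35 (SE 0.20) and TYMS by 2.15 (SE 0.08). ATF3 1554980_a_at rose by 3.96 ± 0.37, from 2.67, 3.71 and 2.68 to 6.95, 6.81 and 7.19, DNAJB9 by 3.47 ± 0.23, DNAJC3 by 2.73 ± 0.24 and TRIB3 by 2.30 ± 0.19. LINC00960 1559826_a_at, which entered through these control arrays at 72 h alone, rose by 2.49 ± 0.33. The partners of ANLN, TK1, ATF3 and DNAJB9 moved the same way, by −2.50 ± 0.17, −2.51 ± 0.14, 5.52 ± 0.40 and 3.04 ± 0.22.

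Over time in control cells, both probe sets of a pair changed in the same direction in 208 of 785 pairs (26.5%, against a background of 25.6%). They changed in opposite directions in 4 (0.51%, against a background of 0.781%). Unequal changes were found in 84 of 855 pairs (9.82%), against 954 of 7941 conventional pairs, and beyond 2-fold in 3.98%, against a background of 3.50%. The count of 84 was 52, 49 and 51 without control replicates 1, 2 and 3 at 72 h. The background of 954 conventional pairs was then 596, 540 and 627. In Ota cells, 199 extended-content probe sets rose and 78 fell over the same interval (27.6%, against a background of 27.6%, which was 17.7% upward and 9.94% downward), a comparison added after the data had been seen. Over 2-fold, 73 rose and 22 fell, against backgrounds of 4.43% and 2.08%. The arrays of the 2 times did not overlap in 284 higher and 167 lower of the 1003, against a background of 47.9% in either direction. The count of 277 fell to 178 without Ota replicate 2 at 24 h and to 183 without Ota replicate 2 at 72 h. Over all probe sets tested the count of 6206 fell to 3999 and 4247. Pairs changed unequally in 87 of 855 (10.2%, against a background of 6.17%), and beyond 2-fold in 5.73% (background 2.77%). Both sets changed in the same direction in 120 of 785 (15.3%, against a background of 13.7%). They changed in opposite directions in 10 (1.27%, against a background of 0.668%). The 87 fell to 46 without Ota replicate 2 at 24 h, to 39 without Ota replicate 1 and 45 without Ota replicate 2 at 72 h, and the background fell with it, from 490 conventional pairs to 205, 190 and 193. The RPP30 set fell by 2.04 (SE 0.20) in Ota cells over time while its partner differed by 0.12 ± 0.10, and ZMYM3 1554171_at rose by 0.96 ± 0.20 while its partner fell by 0.55 (SE 0.15).

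How often a pair responded unequally at 24 h went with the kind of probe set. Sets ending in _at, 354 of the 1003, gave 116 unequal pairs of 272 (42.6%), and the 359 ending in _a_at gave 68 of 319 (21.3%). The 242 ending in _s_at gave 53 of 227 (23.3%) and the 48 ending in _x_at 14 of 37 (37.8%). Conventional pairs showed a like order for the first of these kinds, 39.4% for _at and 20.8% for _s_at, but 16.3% for _x_at. By the transcript record listed for the probe set, unequal pairs were 18 of 126 (14.3%) for RefSeq mRNAs, 120 of 341 (35.2%) for the BC and AK cDNA collections and 51 of 149 (34.2%) for expressed sequence tags. Among conventional pairs these shares were 24.6%, 26.8% and 37.3%. The differences between kinds were not tested, because pairs share genes and arrays.

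The number of the probe set went with direction at 24 h as well. The sets were split by number into a lower and a higher range, with the cut between HINT1 1555961_a_at and BICD1 1556051_a_at. Of the 583 sets in the lower range of numbers, 34 rose and 128 fell at 24 h (27.8% changed). Of the 420 in the higher range, 72 rose and 61 fell (31.7% changed). The background over all probe sets tested was 31.0%, which was 12.9% upward and 18.1% downward. Rises over 2-fold at 24 h numbered 10 and 46, and falls over 2-fold 64 and 26, against backgrounds of 5.22% upward and 5.50% downward. At 72 h the rises and falls were 77 and 71 in the lower numbers, and 72 and 45 in the higher ones. The backgrounds at 72 h were 16.4% upward and 11.8% downward. Unequal pairs at 24 h were 123 of 518 (23.7%) and 128 of 337 (38.0%), against a background of 29.6% of conventional pairs. These counts are a description, and the median level also differed, at 6.49 for the lower and 5.66 for the higher numbers.

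Several extended-content sets of 1 gene could change in different directions. There were 137 genes with at least 2 sets, up to 4, and at 24 h at least 2 sets changed in 34 of them. In 5 of these, BICD1, CNPY3, COCH, FAM120A and SLC46A1, the sets changed in opposite directions. BICD1 1554020_at fell by 2.30 and 1556051_a_at rose by 0.80 at 24 h, and at 72 h they fell by 1.80 and rose by 0.90. FAM120A rose by 0.54 and 0.58 in 2 sets and fell by 0.91 in the other at 24 h. SLC46A1, for the proton-coupled folate transporter, fell by 0.59 in 1552279_a_at and rose by 0.58 in 1558703_at. At 72 h at least 2 sets changed in 24 genes, and in BICD1 and PPA2 they changed in opposite directions. These 6 genes were named after their values were seen. No matching count was made for genes with several conventional probe sets, so the counts cannot be called particular to the extended content. Among conventional pairs, both sets changed in opposite directions in 5.92% at 24 h and 1.79% at 72 h.

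Levels of the extended-content sets, averaged over the 12 arrays, had a median of 6.21 (quartiles 4.79 and 7.82), and those of conventional sets above the filter 7.81 (6.18 and 9.46). This is a description of what passed the filter. The share changed at 24 h by level was 24.5% of 380 sets between 4 and 6, 34.4% of 317 between 6 and 8 and 33.3% of 165 between 8 and 10, and for conventional sets 27.7%, 34.2% and 34.3%. The sets with the highest array values, which say nothing of abundance between genes, were those of the mitochondrially encoded genes COX1, ATP6, COX2 and ND2, with group means between 14.84 and 15.64, and HINT1 1555961_a_at, for a nucleotide-cleaving enzyme. None of these sets changed with Ota. HINT1 1555961_a_at differed by 0.11 ± 0.08 at 24 h and 0.15 ± 0.08 at 72 h, and its partner by 0.15 ± 0.09 and 0.20 ± 0.09. The other extended-content set of HINT1 fell at 72 h, where the responses of the 2 sets lay 1.08 apart.

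Just inside the filter were TONSL 1558330_x_at, TCTN1 1556864_at and SLC25A45 1563498_s_at, whose values on the array that decided the filter were 4.0044, 4.0046 and 4.0053. Just outside were MCMDC2 1552359_at, EME2 1569868_s_at and YEATS2 1557047_at, at 3.9988, 3.9970 and 3.9943. TONSL stayed between 3.44 and 4.12 on all arrays, TCTN1 was above 4 on 3 arrays in 3 groups, and SLC25A45 passed through 1 Ota array at 24 h and 2 at 72 h.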

How the data were processed

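The deposited values are log2 expression values that the authors made with GCRMA, per the submitters' processing notes, which give no version. They hold 1 value per probe set on each of 12 arrays and were used as deposited. Gene names came from the platform annotation, with 1002 of 1003 symbols updated through the gene ID. The 62 control probe sets were left out, and the 22477 probe sets above 4 on at least 3 arrays were tested. Models were fitted with limma 3.58.1 in R 4.3.3 (lmFit and eBayes, 1 mean per group, 8 residual degrees of freedom), with Benjamini-Hochberg adjustment and a threshold of 0.05. Pairs were tested as within-array differences in 1 fit of 855 and 7941 pairs. Alternatives tried were other filters, scalings, partners and fits, a replicate block, and leaving out each array in turn. The scripts were tested on simulated data. The probe sets, gene lists and named genes were chosen with earlier results of these data known. Genes were named by fixed ranks: the largest changes and pair differences per comparison, the leading changed set of each list, the largest time effects, the brightest sets and those at the filter. Same-numbered replicates deviated together between control and Ota cells at 24 h (r = 0.35 to 0.48). Unlike numbers gave −0.32 to −0.08. So did Ota cells at 24 h and control cells at 72 h (0.283 to 0.295, against −0.24 to −0.05). The ranges overlapped between Ota cells at 24 h and 72 h (−0.08 to 0.14, against −0.24 to 0.13). They also overlapped between control and Ota cells at 72 h (−0.04 to 0.18, against −0.25 to 0.16). The labels give no pairing and the fit had no replicate block, so the test at 24 h left this sharing out. With a block, 325 extended-content probe sets changed at 24 h, and 295 without. No source used here gives scan dates or batches. With 3 arrays a group, precision is limited by their number.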

Additional observations from a re-analysis of the deposited data

Results flagged for a closer look

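The response to Ota differed between 24 h and 72 h in 153 extended-content probe sets by the test of the difference itself, and those named in the text are given here as the log2 response at 72 h minus that at 24 h. The response was higher at 72 h in SSH2 (2.84), STRIP2 (2.82), FAM111B (2.68), ARHGAP27 (2.37), LRRN4 (2.34), TK1 (2.26), CGAS (1.80), TYMS (1.74), CDC25A (1.72), RPS15 (1.63), B3GALT6 (1.57), KCNG3 (1.50), ATP11B (1.41), ANLN (1.40), RBL1 (1.36), SETD6 (1.36), CENPBD1P (1.21), ZMYM3 (1.20), ENAH (1.09), CEP43 (1.06), TMEM237 (0.90), FGFR1OP2 (0.79) and PDHA1 (0.40). It was lower at 72 h in DCTN5 (−2.19), MIA3 1560148_at (−2.06), RPP30 (−2.01), LINC00960 (−1.98), MYLK (−1.93), NBR2 (−1.71), DNAJC3 (−1.62), GOLGA4-AS1 (−1.51), ZNF446 (−1.51), IST1 (−1.37), SEC62 1552790_a_at (−1.27), DNAJB9 (−1.26), SEC62 1552789_at (−1.15), MIA3 1569057_s_at (−0.81) and IDH1 (−0.71).

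Of these, RPP30, MYLK, RPS15 and MIA3 1560148_at were above the filter on Ota arrays only and LINC00960 and GOLGA4-AS1 on control arrays only, so they entered through the group where they were high. The call for this difference was lost when 1 array was left out in 9 of these probe sets, and the direction held in each. For DNAJB9 and MYLK it was lost without control replicate 1 or 3 at 72 h (adjusted p up to 0.0583 and 0.0506 in limma), and for KCNG3 also without Ota replicate 2 at 24 h (up to 0.0537). For MIA3 1560148_at it was lost without Ota replicate 1 at 72 h or control replicate 1 at 24 h or 72 h (up to 0.0598). For CENPBD1P it was lost without Ota replicate 1 or 2 at 24 h, Ota replicate 1 or 3 at 72 h or control replicate 1 at 72 h (up to 0.0574). For DCTN5 (up to 0.0618), RPS15 (up to 0.0663), PDHA1 (up to 0.0931) and FGFR1OP2 (up to 0.111) at least 6 of the 12 arrays had this effect. The part of single arrays in the other 144 was tested for the named sets only.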

How the results depend on the processing

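Counts are out of 1003 probe sets or 855 pairs unless given. Counts in brackets are backgrounds, of all 22477 probe sets tested or of 7941 conventional pairs unless given. Without a filter on low values, differences between responses were called in 99 of 6683 probe sets (2440 of 54613). Changes in Ota cells over time were called in 183 of 6683 (4498 of 54613). Of the 3777 pairs then tested, 602 were unequal at 24 h and 415 at 72 h (3478 and 2022 of 16890). Over time, 555 of the 3777 were unequal in control cells and 356 in Ota cells (2567 and 1321 of 16890). With a filter at 6, unequal pairs of 537 numbered 145 at 24 h (1747 of 5954). Over time they numbered 44 in control and 52 in Ota cells (810 and 341 of 5954). Fitting only the groups compared gave 48 unequal pairs in Ota cells over time (245). Restricting to the 354 sets ending in _at gave 120 changed at 24 h, 99 at 72 h and 49 for the difference. Over time it gave 109 changed in control and 98 in Ota cells. The shares over all probe sets tested were 31.0%, 28.2% and 17.0%, and over time 39.9% and 27.6%. Of the 185 pairs with both endings in _at, 75 were unequal at 24 h and 38 at 72 h (936 and 519 of 2453). Over time, 22 of these pairs were unequal in control and 33 in Ota cells (377 and 216 of 2453). Leaving out 1 array at a time gave 238 to 292 changed probe sets at 24 h (5471 to 6673). It gave 179 to 227 at 72 h (4539 to 5470) and 103 to 168 for the difference (2371 to 3909). Over time it gave 277 to 333 in control (7429 to 8765) and 178 to 290 in Ota cells (3999 to 6207). Unequal pairs ranged over 203 to 242 at 24 h (1989 to 2341) and 82 to 95 at 72 h (834 to 1005). Over time they ranged over 49 to 97 in control (540 to 1086) and 39 to 106 in Ota cells (190 to 618). Repeated quantile normalization lowered the upward share of calls from 71.9% to 60.3% for the difference and from 71.8% to 61.2% in Ota cells over time, and shifting arrays to a common median gave 77.6% and 78.6%. With the replicate number as a block, changed probe sets numbered 325 at 24 h (7767), 303 at 72 h (7199) and 195 for the difference (4665). Over time they numbered 396 in control (9875) and 318 in Ota cells (7220). Unequal pairs with the block were 260 at 24 h and 131 at 72 h (2420 and 1261). Over time they were 99 in control and 99 in Ota cells (1004 and 565). The block changed 3 of 351 called values of named genes (ATRNL1, and FGFR1OP2 in both a difference and a pair). Of these 351, leaving out 1 array ended 76 in at least 1 case and reversed 0. The other settings tried (mean filter, partner choice, trend and robust settings) kept the counts within 1.5 times. The cause of these shifts was not tested. Values near the GCRMA floor limit what the lowest probe sets can show.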
